A study of Homo sapiens with 288 samples.

Results

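KRT8, KRT18, KRT19, KRT7 and KRT23 are keratin genes whose proteins build the intermediate filaments of single-layered epithelia. They were found by symbol in the deposited count tables, where all 5 were present among 17492 genes, 52 of them keratins. The values came from 288 libraries of single cells made from the H1 human embryonic stem cell line. EC cells are endothelial cells, cultured with 5 ng/ml BMP4 and 25 ng/ml Activin A for 2 days and with VEGF and WNT for 3 days, and TB cells are trophoblast-like cells, cultured in E7 medium with 50 ng/ml BMP4 and the inhibitor SB431542. The amplified cDNA of 45 EC and 51 TB cells, captured on a Fluidigm C1 chip, was brought to a fixed input and sequenced in 3 experiments, with equal pooling volumes (EQ), with varied volumes (EQ-Vary) and as a repeat of EQ at lower depth (EQ-75%). All cells come from 1 cell line, no separate cultures are named, and the same number marks the same cell in every experiment. Each cell type in each experiment was therefore 1 sample, cells were not replicates, and no p-value was computed.

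Keratin filaments are obligate heteropolymers, in which each type I protein pairs with a type II protein. KRT8 and KRT7 are of type II, and KRT18, KRT19 and KRT23 are of type I. KRT8 and KRT18 form the pair that appears first in the embryo and persists in simple epithelia, where a keratin without a partner is degraded. KRT7 is a common marker of trophoblast in placental tissue, KRT19 is the smallest keratin and has almost no tail domain, and KRT23 is a less studied type I keratin. Endothelial cells rely mainly on other intermediate filaments.

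The rod domain ends in the helix termination motif, a conserved part of keratins. To show how alike the type I members are there, the 60 coding bases of this stretch are given from the GENCODE 44 reference transcript of each gene on GRCh38, 5′ to 3′ on the coding strand, with capitals at the 35 positions where KRT18, KRT19 and KRT23 have the same base.
KRT18: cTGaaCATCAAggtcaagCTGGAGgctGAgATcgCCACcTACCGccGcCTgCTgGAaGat
KRT19: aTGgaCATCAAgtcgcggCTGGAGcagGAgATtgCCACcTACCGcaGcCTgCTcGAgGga
KRT23: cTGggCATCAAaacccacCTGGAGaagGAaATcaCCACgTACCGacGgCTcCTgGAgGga
The stretches lie at chr12:52952269-52952328 in exon 6 of KRT18 (plus strand), chr17:41523788-41523847 in exon 6 of KRT19 (minus strand) and chr17:40925365-40925424 in exon 7 of KRT23 (minus strand). KRT18 and KRT19 shared 44 of the 60 bases, KRT19 and KRT23 shared 43, and KRT18 and KRT23 shared 41. After this stretch KRT19 had 42 coding bases left before its stop codon, against 135 in KRT23 and 132 in KRT18.

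The type II genes and KRT18 lie on chromosome 12, and KRT19 and KRT23 on chromosome 17. The annotated bodies of KRT8 and KRT18 overlap by 1084 bases on opposite strands, with 135 exonic bases shared by their protein-coding transcripts and 0 by the reference transcripts. The library kit does not mark strand, so reads from the shared bases cannot be assigned to one gene by strand. Of all 51-base windows in the reference transcripts, the length to which the authors trimmed the reads, 8.77% in KRT8, 6.75% in KRT18, 5.60% in KRT19, 6.22% in KRT7 and 0.324% in KRT23 matched another protein-coding gene with up to 2 mismatches. KRT8 was the only such partner of KRT18, and KRT7 shared 38 windows with KRT8. Windows matched to pseudogenes of the same gene made up 73.8% of KRT8, 85.1% of KRT18 and 22.5% of KRT19. Of the KRT8 and KRT18 pseudogenes only KRT18P55 was among the genes listed. It held 43 counts in TB and 41 in EC of EQ, 0.0217% and 0.155% of the KRT18 counts. The other KRT8 and KRT18 pseudogenes had no row to take reads, so their part in the KRT8 and KRT18 counts cannot be told from these values. Expected counts were not whole in 86.5% of the nonzero EQ values of KRT8 and in 81.3% of those of KRT18, against 20% for KRT23, so part of the KRT8 and KRT18 counts was divided between features by estimation.

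Cells with too few counts, or with too large a share of them in their top 50 genes, were left out, and 38 EC and 48 TB cells were kept in EQ, 38 and 46 in EQ-Vary, and 39 and 50 in EQ-75%. Total counts per kept cell ran from 365557 to 3966827 in EQ. Counts are given per 1000000 counts of the cell (CPM). The endothelial list was higher than the trophoblast list in 37 of 38 EC cells and in 0 of 48 TB cells. All 14 endothelial genes tested were at least 4-fold higher in EC, and 7 of 12 genes of the trophoblast and extraembryonic ectoderm list were at least 4-fold higher in TB. Over all genes tested the shares were 10.1% and 14.8%. Genes were tested if their type means averaged at least 1 CPM, which left out ROBO4 (1.19 CPM in EC, 0.599 CPM in TB). Several passed only through their own type, such as CDH5 (407 and 0.752 CPM) and TFAP2B (0.266 and 99.4 CPM). That alone put such genes past 4-fold. Of the defining trophoblast genes, CGB5 (0.635 CPM), CGA (2.93 CPM) and ELF5 (3.43 CPM) were near 0 in TB. One EC cell went against its label: EC 15 had the lowest endothelial sum of the 38 cells (586 CPM) and the highest sum of the undifferentiated stem cell list (3421 CPM), and the keratin results that rest on it are given with and without it. The TB cell TB 16 had the lowest agreement between its EQ and EQ-75% libraries of 47 TB cells, with a Pearson r of 0.872 over genes against a median of 0.977.

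KRT8 and KRT18 had counts in every kept cell of both types and were higher in TB. Across the 38 EC cells, KRT8 had a lowest value of 7.62, a median of 38.3 and a highest value of 1696 CPM, and across the 48 TB cells 86.9, 1068 and 4575 CPM. The groups overlapped, and 9 TB cells were above the highest EC cell while 30 EC cells were below the lowest TB cell. The mean KRT8 level was 137 CPM ± 306 (SD, n = 38 cells) in EC and 1259 CPM ± 806 (SD, n = 48 cells) in TB, 9.19-fold higher in TB. The highest EC value was that of EC 15, which alone held 32.6% of the summed KRT8 CPM of the EC cells. The 9 TB cells are therefore those above EC 15. Without EC 15 the highest EC value was 814 CPM, below the TB median, and the groups still overlapped. The EC mean was then 94.9 CPM and the ratio 13.3-fold.

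KRT18, the type I partner of KRT8, was the most abundant of the keratins in both types. Its lowest, median and highest values were 14.8, 168 and 1254 CPM in EC, and 267, 1590 and 6069 CPM in TB. With 30 TB cells above every EC cell, the groups again overlapped. The highest EC cell was again EC 15, and without it the highest EC value was 1156.5 CPM. The means were 327 CPM ± 346 (SD, n = 38 cells) and 1926 CPM ± 1278 (SD, n = 48 cells), a ratio of 5.90-fold, or 6.39-fold without EC 15. KRT18 ranked 35 and KRT8 ranked 73 by mean CPM in TB among the 17492 genes. In EC they ranked 530 and 1643.

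KRT19 separated the cell types without overlap. In TB its lowest value was 135, its median 658 and its highest 6511 CPM, and in EC the lowest was 0, the median 2.52 and the highest 81.5 CPM. All 48 TB cells were above all 38 EC cells, and the same held for the 46 and 38 cells of EQ-Vary and for the 50 and 39 cells of EQ-75%. The mean was 5.57 CPM ± 13.4 (SD, n = 38 cells) in EC and 944 CPM ± 985 (SD, n = 48 cells) in TB, 169-fold higher in TB. The EC mean rested in large part on 1 cell, EC 2, which held 131 counts, and without it the EC mean was 3.52 CPM. In EC 2 KRT19 was also present in EQ-Vary with 82 counts and in EQ-75% with 166 counts. EC 2 ranked 4 among the 38 EC cells by KRT8, 4 by KRT18 and 4 by the mitosis list, and its endothelial sum of 5111 CPM ranked 24. EC 30 followed with 46, 20 and 27 counts in the 3 experiments.

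The remaining EC cells held few KRT19 counts, with a median of 4.5 counts per EC cell in EQ. The median EC level was 0.267% of the TB mean. The same measure was taken for the 11 genes of the endothelial list and the 8 of the trophoblast and extraembryonic ectoderm list with a mean of at least 50 CPM in their own type. The median TB level of the endothelial genes was 0 for 5 of the 11 and at most 1.97% of the EC mean (EMCN), and 2 of the 11 were above the 0.267% of KRT19. The median EC level of the trophoblast-list genes ran from 0 (TFAP2B) over 0.283% (VTCN1) to 4.25% (TFAP2A) and 31.7% (GATA3) of the TB mean, and 6 of the 8 were above KRT19. KRT8 and KRT18 had median EC levels of 3.04% and 8.70% of their TB means, above all 11 endothelial genes but below 2 and 1 of the 8 trophoblast-list genes. EC and TB libraries were pooled in 1 lane, and the part of reads or RNA from TB libraries in these EC values was not tested.

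**Figure D1:**
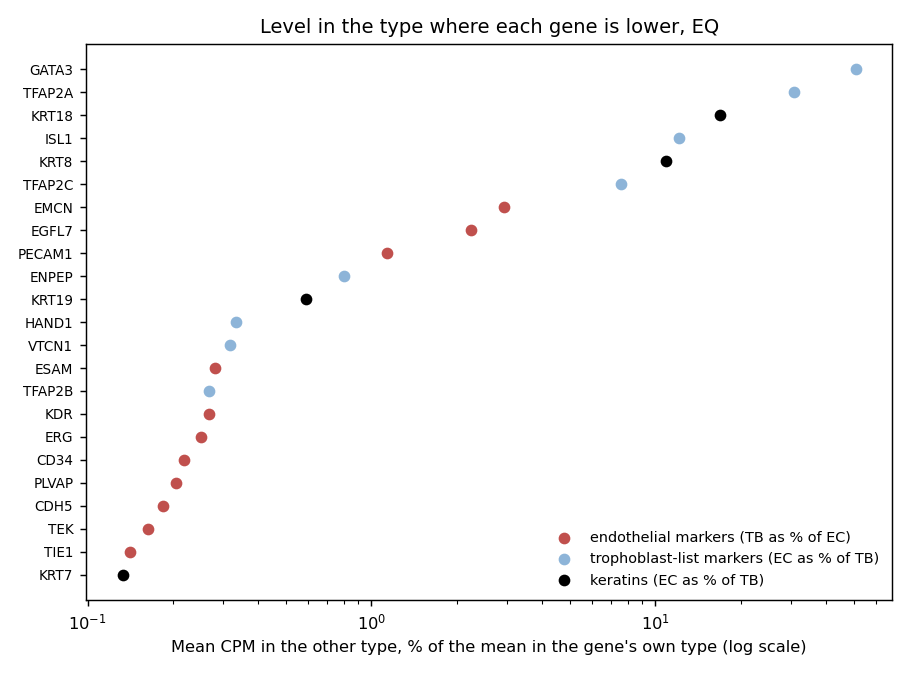
Mean CPM in the cell type where a gene was lower, as a percent of its mean in the type where it was higher (log scale), in EQ, for endothelial markers (red, TB as percent of EC), trophoblast-list markers (light blue, EC as percent of TB) and keratins (black, EC as percent of TB), for markers with a mean of at least 50 CPM in their own type. The endothelial markers run from 0.142 to 2.94% and the trophoblast-list markers from 0.267 to 50.8%, with KRT7 at 0.133%, KRT19 at 0.591%, KRT8 at 10.9% and KRT18 at 17.0%.

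KRT7 was found almost only in TB, and not in every TB cell. Its TB values had a lowest value of 0, a median of 6.95 and a highest value of 269 CPM, and the highest EC value was 0.477 CPM. In 14 TB cells the count was 0, in 7 it was between 1 and 2, and in 27 it ran from 6 to 935. The mean was 25.3 CPM ± 44.5 (SD, n = 48 cells) in TB and 20.1 CPM without TB 16, its highest cell. The 38 EC cells together held 3 counts, each in a different cell, and the ratio of the summed counts, each over its summed total, was 765-fold with a 95% exact interval from 262 to 3713, which covers counting error only.

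KRT23 was found in a minority of TB cells. A count was present in 10 of the 48 TB cells, that is 20.8%, and the other cells were at 0. TB 2 had the highest value at 108 CPM, followed by TB 11 at 67.3 CPM and TB 14 at 55.6 CPM. The TB mean of 5.85 CPM ± 19.7 (SD, n = 48 cells) rested on these cells and was 3.68 CPM without TB 2. No EC cell of EQ had a count, which allows up to 3 counts over the type, and the TB mean was at least 153-fold higher by that floor, or at least 94.1-fold without TB 2. In EQ-Vary 4 counts and in EQ-75% 1 count were found in the kept EC cells, and the ratio of the means was 88.9-fold and 105-fold. EC 41, left out of all 3 experiments by the limits, held 16 KRT23 counts in EQ-75% (69.2 CPM) and 0 in EQ and EQ-Vary. The 3 highest KRT23 cells held 4.13, 0 and 0 CPM of KRT7 and 1563, 2133 and 1089 CPM of KRT19. The next 5, TB 49, TB 33, TB 35, TB 15 and TB 18, with 3.54 to 13.6 CPM of KRT23, held 21.2 to 65.6 CPM of KRT7, and their KRT19 ran from 392 to 1912 CPM, on both sides of the TB median.

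**Figure D2:**
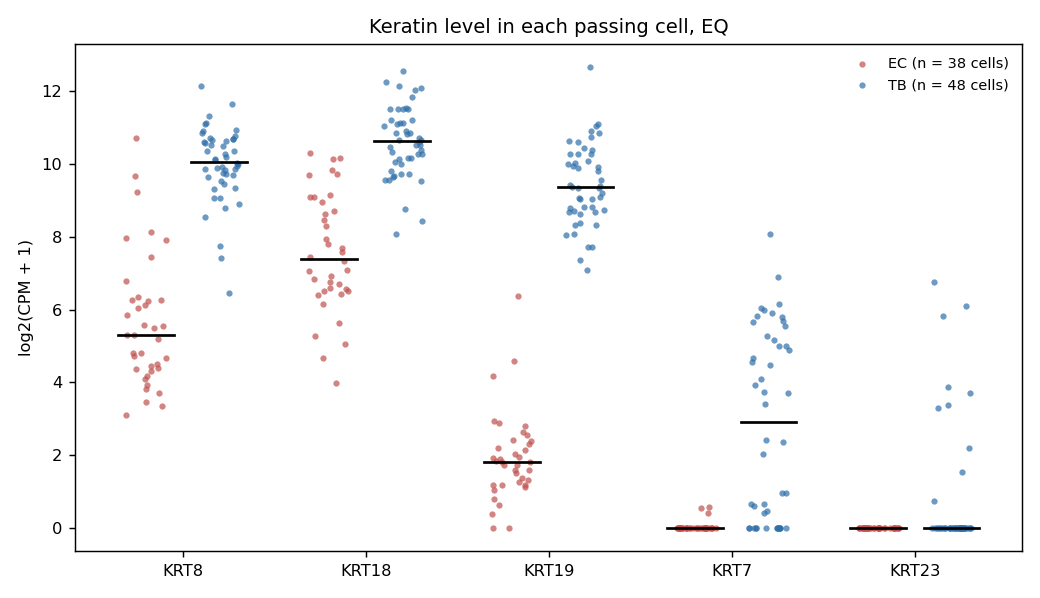
Each point is a kept cell of EQ (EC red, n = 38, TB blue, n = 48), the vertical axis gives log2(CPM + 1), and the black line marks the median over cells. KRT8 and KRT18 overlap between the types, KRT19 does not, KRT7 is split within TB, and KRT23 is above 0 in 10 TB cells.

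All 5 genes were past a 4-fold difference in favour of TB in EQ. The type means of KRT7 and KRT23 averaged at least 1 CPM only through TB, with EC near 0. That alone put these genes past 4-fold. Over all genes whose type means averaged at least 1 CPM, 14.8% of 12351 were at least 4-fold higher in TB and 10.1% were at least 4-fold higher in EC, with a median log2 ratio of 0.06. The log2 ratios of the means were 3.20 for KRT8, 2.56 for KRT18 and 7.40 for KRT19. The EC means of KRT7 and KRT23 were under the floor of 3 summed counts. With the floor in their place the values were 9.37 for KRT7 and at least 7.26 for KRT23. In EQ-75% the KRT7 value was 8.46. By the EQ ratio KRT7 ranked 7 among the tested genes. The share of tested genes with a ratio at or above that of the member was 0.0567% for KRT7, 1.85% for KRT19, 2.06% for KRT23, 9.11% for KRT8 and 11.6% for KRT18. In difference of mean CPM rather than ratio, KRT18 ranked 14, KRT8 27 and KRT19 42 among the 17492 genes.

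Per kilobase of reference transcript, the order of mean levels in TB was KRT18 (1363 CPM per kb), KRT8 (706), KRT19 (679), KRT7 (15.6) and KRT23 (2.65). KRT8 and KRT19 did not differ beyond their spread, since the SDs were 452 and 709 CPM per kb and KRT8 was the higher of the pair in 29 of 48 cells. KRT18 was above KRT8 in 45 of 48 cells, and KRT19 was above KRT7 in all 48. In EC the order began with KRT18 (231 CPM per kb), KRT8 (76.8) and KRT19 (4.01). With the total exon length of each gene in place of the reference transcript, KRT8 in TB was below KRT19, at 183 against 404 CPM per kb, since the annotated KRT8 exons span 6881 bases in all and its reference transcript 1784. The type I keratins KRT18, KRT19 and KRT23 together exceeded the type II keratins KRT8 and KRT7 in all 48 TB cells, by a median of 2.60-fold per kilobase. KRT18 alone exceeded KRT8 by a median of 1.92-fold.

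Together the members made up 0.416% of all counts in TB and 0.0469% in EC. The lowest, median and highest summed level was 1420, 3414 and 17423 CPM in TB, the highest being that of TB 16, and 56.6, 263 and 2951 CPM in EC, the highest being that of EC 15. The other intermediate filament genes on the list summed to a median of 110 CPM in TB and 153 CPM in EC, so that the keratin sum was the higher one in 48 of 48 TB cells and in 23 of 38 EC cells. Vimentin was not analysed here and is not in this sum, so the comparison does not cover all other filaments of these cells. NES, which encodes nestin, was the most abundant of these other filament genes in EC with a mean of 128 CPM against 3.05 CPM in TB, and LMNA, which encodes the nuclear lamins A and C, had 31.1 CPM in EC and 83.1 CPM in TB. SYNM, which encodes synemin, had 26.4 and 1.27 CPM.

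Detection, the share of cells with a count of at least 1, was 100% for KRT8 and KRT18 in both types. KRT19 was detected in 36 of 38 EC cells (94.7%, 95% exact binomial interval 82.2 to 99.4%) and in 48 of 48 TB cells. KRT7 was detected in 3 of 38 EC cells (7.89%, interval 1.66 to 21.4%) and in 34 of 48 TB cells (70.8%, interval 55.9 to 83.0%). KRT23 was detected in 0 of 38 EC cells, which allows a share of up to 9.25%, and in 10 of 48 TB cells (interval 10.5 to 35%). The intervals cover counting error only. When each cell was thinned to 250000 counts, KRT19 detection in EC was 49.5%, while KRT8 in EC remained at 98.9% and KRT18 at 99.9%. KRT7 in TB was at 55.8% and KRT23 at 16.7% after thinning. The 11 endothelial genes named above were detected in 6 to 48 of the 48 TB cells, with CDH5, an endothelial junction gene, in 31 and KDR in 48. KRT19 had at least 5 counts in 19 of 38 EC cells. Of the 37 EC cells kept in all 3 experiments, 30 held KRT19 in each. Whether the low KRT19 counts in EC come from expression was not tested.

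**Figure D3:**
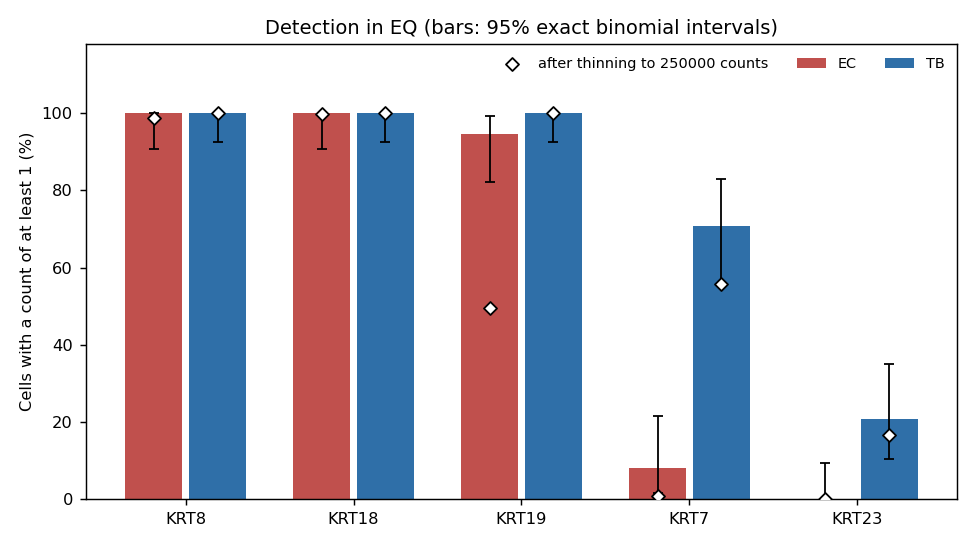
Bars give the percent of kept EQ cells with a count of at least 1 (EC red, n = 38, TB blue, n = 48), black lines the 95% exact binomial intervals, and white diamonds the expected percent after thinning every cell to 250000 counts. KRT19 in EC drops from 94.7 to 49.5% on thinning, while KRT8 and KRT18 stay above 98%.

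Every TB cell of EQ held KRT8, KRT18 and KRT19. In 28 cells KRT7 was added to these, in 4 cells KRT23, in 6 cells both, and in 10 cells neither. Among EC cells, 33 held KRT8, KRT18 and KRT19, 3 held KRT7 in addition, and 2 held KRT8 and KRT18 alone.

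The pair KRT8 and KRT18 varied together between TB cells and showed little relation between EC cells. In TB the Spearman rho of log2(CPM + 1) was 0.78 over 48 cells in EQ, 0.77 over 46 cells in EQ-Vary and 0.78 over 50 cells in EQ-75%. In EC the rho was 0.13 over 38 cells, 0.20 over 38 and 0.13 over 39. The experiments hold the same cells and are not independent of one another, the cells of a type share their lane and no separate cultures are named, and the difference between the types was not tested. Without TB 16 the TB value was 0.77, and without EC 15 the EC value was 0.06. The rho with the log10 total count was 0.26 for KRT8 and 0.24 for KRT18 in TB, and -0.00033 and 0.16 in EC.

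Among 8902 genes that were detected in at least 50% of the TB cells with a mean of at least 5 CPM, KRT18 was the gene most like KRT8 and KRT8 the gene most like KRT18. The next were ITGAE, an integrin subunit, with a rho of 0.64 to KRT8 (0.61 in EQ-75%), and LGALS3, which encodes galectin-3, with 0.63 to KRT8 and 0.60 to KRT18 (0.70 and 0.62 in EQ-75%). LGALS3 had a mean of 553 CPM in TB and 1.78 CPM in EC. THOC3 followed for KRT18 with 0.59. In EC, KRT18 ranked 2900 among 8337 genes by its likeness to KRT8. The genes most like KRT8 in EC were DHFRL1, RPL27A and PRPF19 with values from 0.56 to 0.58, which were 0.12, 0.22 and 0.27 in EQ-75%. For KRT18 in EC they were GPAT4, FAM96A and SMARCD1, with values from 0.57 to 0.58, and 0.46, 0.60 and 0.52 in EQ-75%.

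Within single cells, KRT8 was lower than KRT18 in most cells of both types. The log2 ratio of KRT8 to KRT18 had a median of -0.61 and an SD of 0.76 in TB, ranging from -2.32 to 1.64. In EC the median was -2.37 and the SD 2.26, ranging from -6.04 to 3.27. KRT18 was the higher gene in 39 of 48 TB cells and in 29 of 38 EC cells. EC 5 lay at the KRT8 end, with 814 CPM of KRT8 and 83.6 CPM of KRT18 in EQ, with 830 and 81.2 CPM in EQ-Vary, and with 514 and 47.2 CPM in EQ-75%. Its endothelial sum of 5658 CPM ranked 18 among the 38 EC cells.

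**Figure D4:**
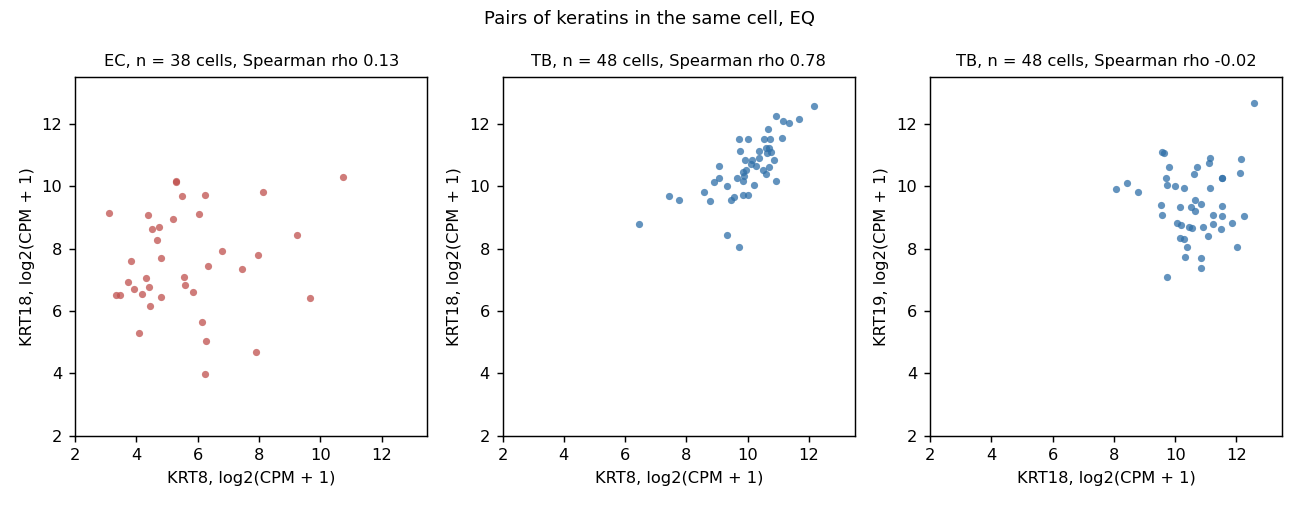
Each point is a kept EQ cell, with axes in log2(CPM + 1). KRT8 and KRT18 lie along a line in TB (rho 0.78, n = 48 cells) and are scattered in EC (rho 0.13, n = 38 cells), and KRT18 and KRT19 are scattered in TB (rho -0.02, n = 48 cells).

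KRT19 did not vary with the pair between TB cells. Its rho was -0.07 with KRT8 and -0.02 with KRT18 in EQ, and -0.03 and 0.08 in EQ-75%. KRT19 exceeded KRT18 in CPM in 9 of 48 TB cells and KRT8 in 16. The genes most like KRT19 in TB were RPL13, a ribosomal protein gene, with 0.71 (0.72 in EQ-75% and 0.74 in EQ-Vary), GCSHP5 with 0.55 and IFT122 with 0.53. In EC the genes most like KRT19 were RRAS, STC1 and DCTD with values from 0.55 to 0.59, which were 0.17, 0.05 and 0.33 in EQ-75%, and KRT19 in EC had a rho of -0.32 with the log10 total count. KRT7 had a rho of 0.43 with KRT18, 0.23 with KRT8 and 0.05 with KRT19 in TB. In EQ-75% these were 0.34, 0.16 and 0.19. KRT18 ranked 18 among 8902 genes by likeness to KRT7, behind NEU1 (0.59), TVP23C (0.51) and RAB11A (0.49) at the head of the list. KRT23 was detected in too few cells for a like list, and its values in TB were -0.20 with KRT8 and 0.17 with KRT19.

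Sequencing the same cDNA again kept the order of the cells for the abundant keratins, with lower mean levels in EQ-75%. Between EQ and EQ-Vary, the within-cell difference of log2(CPM + 1) in 46 TB cells was 0.00079 ± 0.05 (SD) for KRT8, -0.01 ± 0.05 for KRT18 and -0.01 ± 0.08 for KRT19. Between EQ and EQ-75%, over 47 TB cells, it was -0.10 ± 0.27 for KRT8, -0.05 ± 0.23 for KRT18, -0.15 ± 0.30 for KRT19 and -0.23 ± 0.61 for KRT7. KRT19 was lower in EQ-75% in 35 of the 47 cells, and each of these mean differences was smaller than its SD between cells. In 37 EC cells the difference was -0.22 ± 0.53 for KRT8 and -0.22 ± 0.34 for KRT18, with KRT18 lower in EQ-75% in 28 of them. Ranks over TB cells were kept, with a Spearman rho between EQ and EQ-75% of 0.94 for KRT8, 0.97 for KRT18, 0.96 for KRT19 and 0.93 for KRT7. In the EC cells it was 0.93 for KRT8, 0.98 for KRT18 and 0.44 for KRT19. A pair of TB cells was much lower in EQ-75% for all 3 abundant keratins. TB 40 had KRT8 at 1652 and 628 CPM, KRT18 at 1570 and 806 CPM and KRT19 at 1335 and 471 CPM in EQ and EQ-75%, with total counts of 365557 and 2009152. TB 16 had KRT19 at 6511, 6193 and 3144 CPM and KRT18 at 6069, 5779 and 3194 CPM in EQ, EQ-Vary and EQ-75%.

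**Figure D5:**
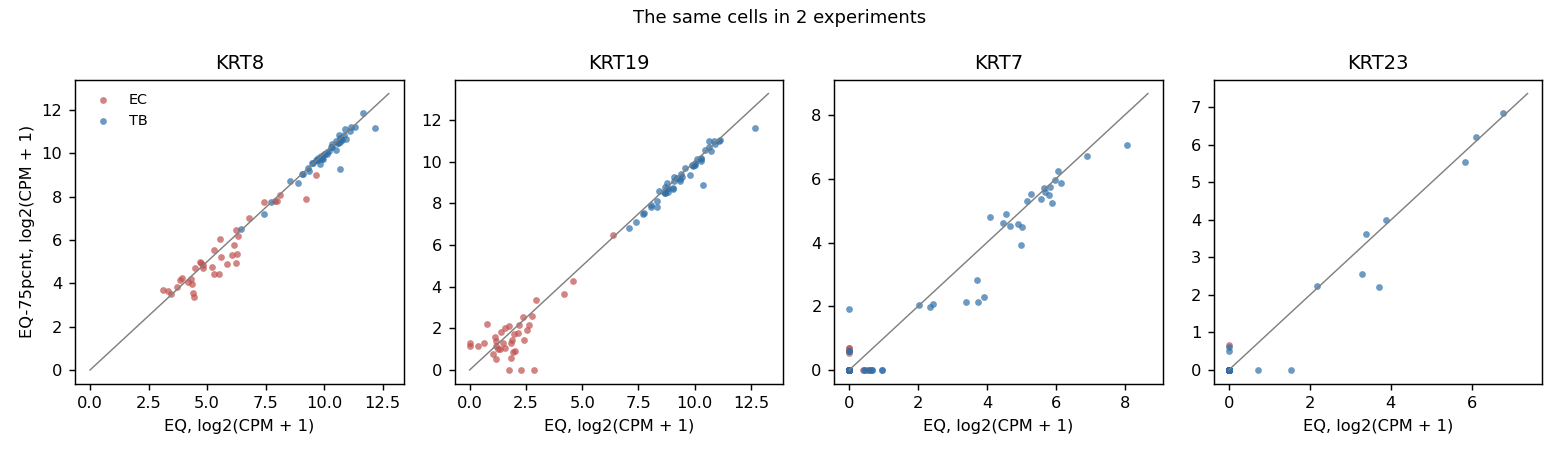
The same cells in EQ (horizontal axis) and EQ-75% (vertical axis), as log2(CPM + 1), for KRT8, KRT19, KRT7 and KRT23, with EC in red (n = 37), TB in blue (n = 47) and a grey line of equality. KRT8 and the TB values of KRT19 follow the line (rho 0.94 and 0.96 in TB), and the EC values of KRT19 are scattered near 0 (rho 0.44).

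KRT7 and KRT23 recurred in the same TB cells from one experiment to the next. Over the 45 TB cells kept in all 3 experiments, KRT7 was detected 3 times in 27 cells, in 2 experiments in 3 cells, in 1 experiment in 9 cells and never in 6. The cells seen in 1 or 2 experiments held at most 4 counts. At a level of 10 CPM, 20 of the 45 cells were at or above it in all experiments and 21 in none. KRT23 was detected 3 times in 8 of these TB cells, with at least 4 counts each time, never in 31 cells, and in 1 experiment in 6 cells with at most 2 counts. In TB 2 the KRT23 level was 108, 112 and 115 CPM in EQ, EQ-Vary and EQ-75%, in TB 11 it was 67.3, 72.7 and 73.4 CPM, and in TB 14 it was 55.6, 55.3 and 46.1 CPM. In EC, none of the 37 cells held KRT7 or KRT23 in all 3 experiments.

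The spread of the abundant keratins between TB cells was above the trend for genes of like level. The variance of normalised log2 values over the trend fitted across all genes was 2.01 for KRT18, 1.96 for KRT8 and 1.79 for KRT19 in TB of EQ, and 1.77%, 2.10% and 4.01% of 13009 genes had a ratio as high or higher. In EQ-75% these ratios were 1.81, 1.60 and 1.57. For KRT7 the ratio was 1.19, and 35.8% of genes were at or above it. In EC the ratio was 1.16 for KRT18, 0.81 for KRT8 and 0.29 for KRT19. The count-depth slope, the increase of a gene's log nonzero count with log total count, was 1.57 for KRT18, 1.44 for KRT8 and 0.90 for KRT19 in TB, beside a median of 0.74 over 11141 genes. KRT19 in EC had a slope of 0.36, beside a median of 0.80. In EQ-Vary the TB slopes were 1.29, 1.09 and 1.45.

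Other keratins were scarce. Of the 52 keratin genes listed, 27 had no count in any kept EQ cell, and 12 reached a mean of 1 CPM in either type. The members made up 98.8% of the keratin CPM in TB and 97.0% in EC. KRT17, a type I keratin of basal and stratified epithelia, was next with 22.5 CPM ± 56.8 (SD, n = 48 cells) in TB, where it was found in 24 cells, and 0.127 CPM in EC. KRT80 had 8.84 CPM in TB and 1.83 CPM in EC, and KRT10 had 9.55 and 4.92 CPM. KRT16 was found in 6 TB cells with a mean of 2.00 CPM and in no EC cell. KRT74, KRT85 and KRT83 lay between 1.09 and 4.09 CPM in both types. In the reference transcripts, 45 of the 51-base windows of KRT19 matched KRT16 and 34 matched KRT17, and 71 windows of KRT8 matched KRT80. In all, 8 of the 12 keratins tested were at least 4-fold higher in TB and 0 in EC, beside 14.8% and 10.1% of all genes. The median log2 ratio of the 12 was 2.88 against 0.06 for all genes. The 8 were the 5 members, already counted above, with KRT17, KRT80 and KRT16. Of the 8, KRT7, KRT17, KRT23 and KRT16 averaged 1 CPM over the types only through TB.

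Genes that act with keratins in epithelia were higher in TB in part. Desmosomes anchor keratin filaments at cell contacts, and 3 of 10 tested desmosome genes were at least 4-fold higher in TB and 0 in EC, with a median log2 ratio of 1.19. DSP, which encodes the desmoplakin that binds the filaments, had a mean of 186 CPM in EC and 567 CPM in TB, DSC2 had 178 and 362 CPM, and DSG2 had 44.5 and 303 CPM. Of the epithelial junction genes, 12 of 18 were higher in TB and 0 in EC, with a median of 4.70. Genes of this list with EC near 0 averaged 1 CPM only through TB and were past 4-fold by that alone. They were not counted apart. Of the 3 most abundant genes of this list, F11R had 884 CPM in EC and 373 CPM in TB, and TJP1 had 417 and 395 CPM, while SPINT2 had 78.9 and 515 CPM. Of the plakins and keratin-binding genes, 1 of 6 was higher in TB and 1 in EC. MACF1 had 951 CPM in EC and 179 CPM in TB, DST 206 and 432 CPM, and PLEC 32.6 and 25.0 CPM. For the other intermediate filaments the counts were 2 of 9 in each direction, and the median was -0.28.

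Among transcription factors of epithelial and trophoblast cells, 10 of 16 were at least 4-fold higher in TB and 1 in EC, with a median log2 ratio of 3.72. FOS had 42.6 CPM in EC and 1062 CPM in TB, TFAP2C, an AP-2 factor, 29.3 and 388 CPM, and GATA3 120.0 and 236 CPM. EC 15 held 995 CPM of TFAP2C, 89.4% of the summed EC level, and without it the EC mean of TFAP2C was 3.20 CPM and the ratio 121-fold. For the mesoderm and mesenchyme list, 4 of 8 were higher in TB and 0 in EC, led by LUM with 10.2 and 3042 CPM and with DCN at 1.87 and 429 CPM, while COL1A2 had 839.9 and 294 CPM. The part of these mesenchymal genes in the keratin levels of TB was not tested. For the undifferentiated stem cell list it was 1 of 8 in each direction, with LIN28A at 279 and 287 CPM, L1TD1 at 37.2 and 427 CPM (20.2 CPM in EC without EC 15) and DPPA4 at 33.6 and 95.5 CPM. For mitosis it was 0 of 10 in TB and 1 in EC, with CENPF at 155 and 104 CPM, TOP2A at 168 and 65.4 CPM and CCNB1 at 106 and 113 CPM. Each of these lists is set beside the 14.8% and 10.1% of all genes given above. In every list, genes near 0 in 1 type averaged 1 CPM only through the other, which alone put them past 4-fold. The counts do not separate such genes.

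Between TB cells, the keratin pair had its strongest relation, among the lists, to the summed level of the epithelial transcription factors, in the negative direction. KRT18 had a rho of -0.50 with that sum in EQ over 48 cells, -0.50 in EQ-Vary over 46 and -0.52 in EQ-75% over 50, and KRT8 had -0.34, -0.42 and -0.45. FOS alone made up 40.6% of the sum, with values from 41.9 to 3846 CPM and a median of 1003 CPM. With FOS alone the rho was -0.39 for KRT18 and -0.20 for KRT8, and with the rest of the list -0.36 and -0.40. KRT19 had -0.05 with the whole list. With the desmosome sum KRT8 had -0.26 and KRT19 0.20, and with DSP alone KRT8 had -0.44, KRT18 -0.34 and KRT19 0.28 in EQ, and -0.45, -0.34 and 0.27 in EQ-75%. Further desmosome genes differed, with DSG2 at -0.17, -0.0041 and -0.25 and DSC2 at -0.21, -0.18 and -0.05 in EQ. With the mitosis sum KRT8 had 0.29 and KRT19 -0.35, and with the mesoderm and mesenchyme sum KRT8 had 0.28. With the trophoblast and extraembryonic ectoderm sum all members lay between -0.22 and 0.11 in EQ.

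Between EC cells, KRT18 had negative values with some endothelial and junction genes. Its rho was -0.30 with the endothelial sum, -0.56 with PECAM1, which encodes an endothelial adhesion molecule, -0.35 with the epithelial junction sum and 0.40 with the trophoblast and extraembryonic ectoderm sum in EQ over 38 cells. Without EC 15 these were -0.24, -0.53, -0.39 and 0.35, and in EQ-75% over 39 cells -0.21, -0.46, -0.41 and 0.29. The genes of each list differed: KDR had -0.15 and CD34 -0.32, while F11R had -0.42, TJP1 -0.29 and SPINT2 0.11 in EQ. KRT8 in EC of EQ had 0.02 with the endothelial sum, -0.03 with PECAM1, 0.11 with the epithelial junction sum and 0.22 with the trophoblast-list sum. Its values with single junction genes differed, at -0.31 for TJP1 (-0.26 without EC 15), 0.26 for F11R and 0.29 for SPINT2. Between TB cells PECAM1 had -0.49 with KRT8 and -0.32 with KRT18 in EQ, and -0.37 and -0.29 in EQ-75%. KDR and CD34 lay between -0.19 and -0.04 with the pair in TB of EQ. All of these values are descriptions over cells.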

How the data were processed

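Single-cell libraries of EC and TB cells were analysed in 3 experiments. Reads cut to 51 bases had been aligned by the authors with Bowtie 1.2.3, allowing 2 mismatches, against the Ensembl protein-coding set of GRCh38, whose rows include some genes that GENCODE 44 lists as pseudogenes. The deposited values are expected counts per gene from RSEM 1.2.31, not normalized. CASAVA 1.8.2 is also named in the submitters' processing notes. Of the sample columns, 0 were left unused.

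Counts were rounded and divided by the cell's total (CPM). Cells were kept at a log10 total of at least 5.4 with at most 31% of counts in the top 50 genes. Ratios used mean CPM over cells, with a floor of 3 summed counts and a filter of 1 CPM on the average of the type means. Depth bounds the precision: 1 count in a cell of 1000000 counts is 1 CPM. Trends used scran 1.30.0, scuttle 1.12.0 and quantreg 6.1 in R 4.3.3. The rest ran in Python 3.11.15 with scipy 1.17.1, and the steps were tested on simulated data. Transcripts came from GENCODE 44. The gene IDs of all 5 members matched it. Sequences of the type II members are not reported here.

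The members, gene lists and limits were chosen with earlier results of these data known. Named besides the members were, per member and type, the 3 genes with the highest rho, the 3 most abundant genes of each list, and other keratins at 1 CPM or more. CDH5, EMCN, ROBO4, TFAP2A, TFAP2B, CGA, CGB5, ELF5 and KRT18P55 were named outside this rule, and single cells were named after their values were seen. Alternatives without EC 15, and without EC 2 and TB 16, were added after seeing the data.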

Additional observations from a re-analysis of the deposited data

Results flagged for a closer look

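Libraries that failed the limits still held keratin counts. In the 3 EC libraries of EQ with fewer than 100000 counts, the summed count was 11 for KRT8, 34 for KRT18 and 18 for KRT19, above the limit of 3 that a count of 0 allows. They are listed because these libraries enter no comparison. Their totals ran from 11410 to 13925 counts. EC 1 held 13 of the 18 KRT19 counts, against a median of 4.5 in kept EC cells with far larger totals, and the 18 counts come to 466 CPM, against a mean of 5.57 CPM in kept EC cells and 944 CPM in kept TB cells. The origin of these counts was not tested.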

How the results depend on the processing

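Of 199 alternative values over 35 results, 183 stayed on the same side and within the spread of the value reported. All 63 alternative TB over EC ratios of the members kept TB as the higher type by at least 4-fold. Of these, 12 were of KRT7 and 12 of KRT23, whose EC level near 0 alone put them past 4-fold. A log10 total limit of 5.1 and counts that were not rounded returned the reported ratios of KRT8, KRT18 and KRT19, so these alternatives add little. With medians over cells the log2 ratio of KRT8 was 4.80, and with all cells and no limits that of KRT19 was 4.54, since near-empty EC libraries then enter the mean. With scran pooled or median-of-ratios size factors the median log2 ratio of all genes was 0.0046 and -0.01, in place of 0.06. Detection of KRT19 in EC was 50% at 5 counts or more and 49.5% after thinning, that of KRT7 in EC 0% and 0.840%, and that of KRT7 in TB 55.8% after thinning. The rho of KRT8 and KRT18 was 0.25 in EC with all cells, and from 0.72 to 0.79 in TB over 8 alternatives. The rho of KRT8 and KRT19 in EC was 0.23 in EQ and -0.0607 in EQ-75%. The share of genes at 4-fold or more in TB was 9.68% when type means averaged at least 10 CPM. At 2-fold the shares were 26.2% in TB and 19.2% in EC. Per kilobase of total exon length KRT8 in TB was 183 CPM. The cause of the other moved values was not tested. Medians over cells gave no ratio for KRT7 and KRT23, whose EC medians were 0. No paired analysis was possible because the result comes from no test: cell numbers pair the experiments, not EC with TB.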
